A study of Mus musculus with 5 samples.

Results

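The 9 genes described here encode complement components and complement regulators: C1ra, C2, C3, C4b, Cfb, Serping1, Clu, Cd55 and Cd59a. They were chosen by gene symbol from the 35976 genes of the deposited count table, and each had counts in all 5 libraries analysed. The C1q chains were kept out of the set and appear only beside microglia markers. The libraries are bulk RNA sequencing of amygdala cells collected on beads against ACSA-2, an astrocyte surface antigen. There were 3 DTx libraries, called 5A, 6A and 7A and given in that order throughout, from mice given diphtheria toxin (DTx), and 2 saline libraries, called saline replicates 1 and 2 and given in that order, from mice given saline. Mice of both groups had the genotype Ccr2::CreERT2/+;DTR/+, received tamoxifen, were restrained in tubes for 18 days and then went through fear conditioning and extinction. The Cre recombinase is driven from the Ccr2 locus, so the toxin receptor is directed at CCR2-expressing cells such as monocytes and not at astrocytes. The labels state no age, no sex and no pooling of animals, and do not say that each library is a separate mouse. The study's design names 3 mice a group, and the third saline sample was not analysed here. The comparison asks how monocyte depletion during chronic stress altered astrocytes, here for their complement genes.

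Complement is a cascade of proteases that converges on cleavage of C3, whose larger fragment attaches to nearby surfaces and tags them for uptake. The classical pathway runs from C1q through the proteases C1r and C1s to C4 and C2, the alternative pathway uses factor B, and host cells carry inhibitors that stop the cascade on their own membranes. In the brain, microglia make C1q, astrocytes make C4 and large amounts of clusterin, and complement is known for its part in the removal of synapses.

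Total counts were 15961220 to 18708138 in the DTx libraries and 20577672 and 23720299 in the saline libraries. Astrocyte markers were abundant throughout, with a summed level over 12 markers of 26440 to 30550 CPM (counts scaled to library size) in DTx and 26140 to 27720 CPM in saline libraries. Oligodendrocyte markers were higher still, at 42220 to 88470 CPM in DTx and 59290 to 91970 CPM in saline libraries, so the selected cells were not astrocytes alone. Ccr2 was at 2.85, 0.248 and 0.226 CPM in the libraries labelled DTx and had 0 counts in both labelled saline, which goes against the depletion the label names. Directions given here therefore rest on the labels, not on this check. Xist, the noncoding RNA of the inactive X chromosome, had 3 counts in DTx and 6615 in saline libraries, and the Y-linked Ddx3y had 6539 in DTx and 5 in saline libraries. Sex chromosome content and treatment therefore coincided in all 5 libraries and cannot be told apart.

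Of the 9 genes, 8 passed the filter on low counts, which kept 15532 genes, and C1ra did not. With edgeR's quasi-likelihood test 0 of the 8 passed a Benjamini-Hochberg adjusted p of 0.05 over all genes, where 0.0322% of genes tested passed. The smallest of their adjusted p-values was 0.734. C4b, C2 and Serping1, 3 of the 8, had an unadjusted p under 0.05, which 6.68% of all genes had and 4.49% had with a higher level in DTx. The same 3 had a log2 fold change of at least 1, as did 4.43% of all genes. Of the 8 genes 5 were higher and 3 lower in the DTx libraries, where 50.4% of all genes were higher. Their median log2 fold change was 0.45, against 0.00238 over all genes. Every DTx library lay above both saline libraries for C4b, C2, Cfb and Serping1, and also for C1ra, a separation found in 11.1% of all genes tested.

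**Figure D1:**
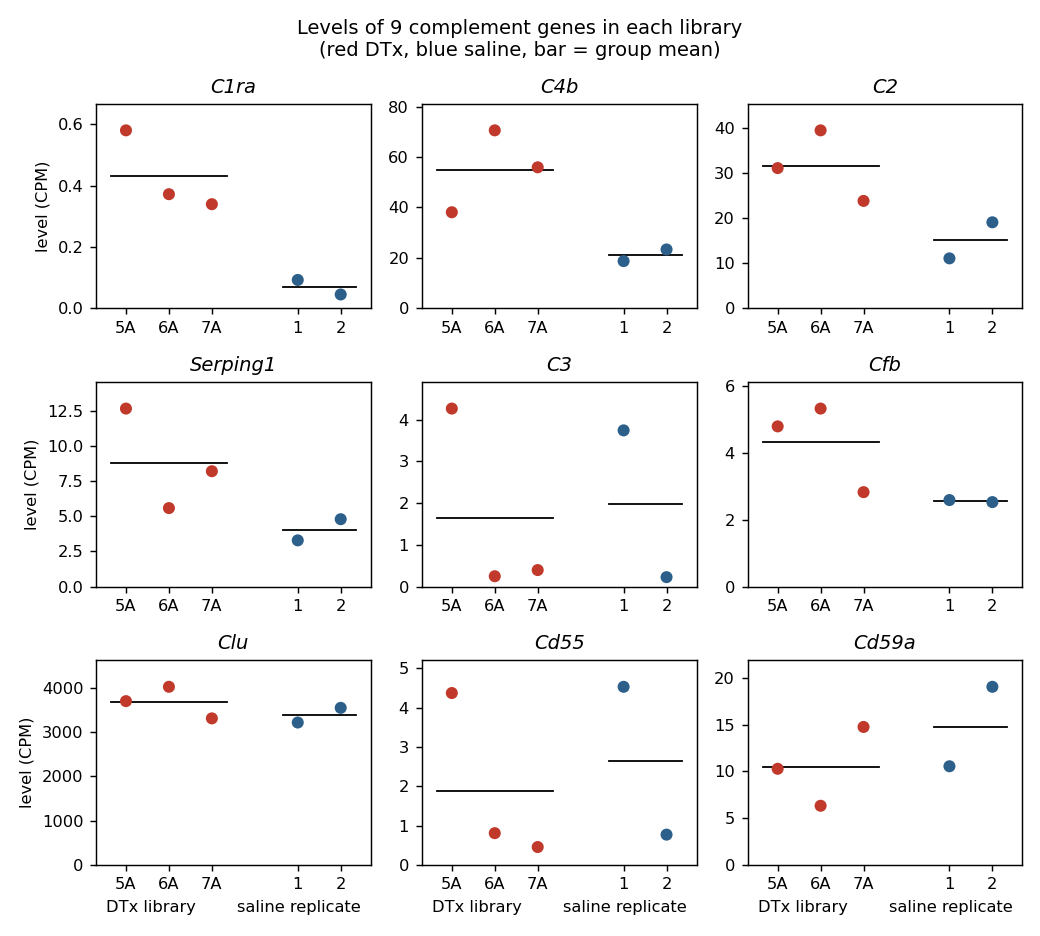
Level of each of the 9 complement genes in TMM-scaled CPM (vertical axes start at 0), in the 3 DTx libraries (red, left) and the 2 saline libraries (blue, right), with the group mean as a bar. C1ra, C4b, C2, Serping1 and Cfb do not overlap between groups, and C3 and Cd55 are high in DTx library 5A and saline replicate 1.

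Levels differed widely between the genes. Per kilobase of annotated exon, the mean over the 5 libraries was 1037 CPM per kilobase for Clu, 7.26 for C4b, 6.73 for Cd59a, 6.44 for C2 and 2.97 for Serping1. It was 1.28 CPM per kilobase for Cfb, 0.45 for Cd55, 0.3455 for C3 and 0.0958 for C1ra. The ranges of C4b, Cd59a and C2 overlapped, so their order is not resolved. Serping1 was below C2, and Cfb below Serping1, in each of the 5 libraries on the same scale, while Cfb and Cd55 overlapped. Clu made up 96.88% to 97.2% of the summed CPM of the 9 genes in DTx libraries and 98.1% to 98.3% in saline libraries.

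Of the classical pathway genes in the set, C4b had the smallest p, which did not pass adjustment. It encodes complement C4, the protein cleaved by activated C1 (GRCm38 chromosome 17, 34728139 to 34743902, minus strand). It was at 38.1, 70.6 and 55.9 CPM in the DTx libraries, against 18.7 and 23.35 CPM in the saline libraries. The lowest DTx library was thus above the highest saline library, and library 6A was highest. This was a log2 fold change of 1.40 ± 0.28 (SE, edgeR quasi-likelihood adjusted p = 0.734), or 2.63-fold, and the gene ranked 38 of 15532 by p. DESeq2 and edgeR's likelihood ratio test called C4b, the 1 member either of them called, with adjusted p of 0.00221 and 0.0035, where they called 0.715% and 0.644% of all genes.

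Counts of C4b depend on how reads were divided from C4a, its near-identical neighbour, which encodes the sex-limited protein. The longest annotated transcripts of the pair were 95.9% identical over 5383 aligned positions, and 34.6% of the 50-base words of C4b transcripts also occurred in C4a. The stretch of 60 coding bases that tells the pair apart best is shown for each gene on the transcript strand, from GENCODE M21 on GRCm38 chromosome 17, with the 13 differing bases in capitals, at bases 2761 to 2820 of the C4b and 2755 to 2814 of the C4a transcript.
C4b: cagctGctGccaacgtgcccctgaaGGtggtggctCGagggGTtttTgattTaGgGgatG
C4a: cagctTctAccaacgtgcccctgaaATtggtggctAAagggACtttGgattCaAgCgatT
C4a itself had 2, 0 and 1 counts in the DTx libraries and 7 and 3 counts in the saline libraries. These counts were lower in DTx than in saline libraries, the opposite of C4b, but C4a did not pass the filter on low counts. With so few counts, and words shared between the pair, no direction can be read for C4a.

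C2 encodes the protease that joins C4 to form the classical C3 convertase (chromosome 17, 34862602 to 34882100). It was at 31.1, 39.5 and 23.9 CPM in the DTx libraries, against 11.1 and 19.1 CPM in the saline libraries. Library 7A lay closest to saline, at 1.25 times saline replicate 2. The log2 fold change was 1.07 ± 0.305 (SE, edgeR adjusted p = 0.742). When mean microglia marker level was a covariate it was 0.64 ± 0.27.

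Serping1 encodes the C1 inhibitor, which binds and inactivates C1r and C1s (chromosome 2, 84765360 to 84775444). It was at 12.65, 5.58 and 8.2 CPM in the DTx libraries, against 3.28 and 4.79 CPM in the saline libraries. All 3 DTx libraries were above saline, but library 6A only by 1.17-fold over saline replicate 2. In log2 terms the difference was 1.146 ± 0.393 (SE, edgeR adjusted p = 0.742). It was 0.79 without library 5A and 0.53 without both library 5A and saline replicate 1. With mean fibroblast marker level as a covariate it was 0.86 ± 0.308. Fibroblast markers summed to 80.7, 38.4 and 55.0 CPM in DTx and 51.7 and 47.6 CPM in saline libraries. Monocyte and border macrophage markers summed to 255.8, 31.7 and 114.5 CPM in DTx and 28.7 and 39.4 CPM in saline libraries. Both lists, like Serping1, were highest in library 5A and lowest in library 6A among DTx libraries. Their part in the Serping1 values was not tested.

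C1ra encodes the protease C1r (chromosome 6, 124512621 to 124523440) and was barely detected. It had 11, 6 and 6 counts in the DTx libraries, against 2 and 1 counts in the saline libraries. The ratio of scaled counts, DTx over saline, was 6.35, with an exact 95% interval of 1.92 to 33.1 that covers counting error only. Of its 50-base words 48.0% also occur in the neighbouring C1rb, which had 1 count in all, so the C1ra count is uncertain. C1s1, which encodes its partner protease C1s, was at 0.58, 0.434 and 0.565 CPM in the DTx libraries and 0.185 and 0.723 CPM in the saline libraries, and the groups overlapped.

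Cfb encodes factor B, the alternative-pathway counterpart of C2 (chromosome 17, 34856374 to 34862514). It lies 87 bases from C2, and C4b and C2 span 154 kilobases together. Cfb was at 4.8, 5.33 and 2.83 CPM in the DTx libraries, against 2.59 and 2.53 CPM in the saline libraries. Libraries 5A and 6A were well above saline, and library 7A only by 1.12-fold over saline replicate 2. On the log2 scale the fold change was 0.76 ± 0.348 (SE, edgeR adjusted p = 0.764). Of all pairs among the 9 genes, C2 and Cfb had the most alike profiles over the 5 libraries, with a mean absolute difference between centred log2 CPM of 0.267, and C2 and C4b were next at 0.311.

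Other measured signals also had higher mean levels in the DTx libraries. The 20 interferon response genes listed all lay above saline in every DTx library, as did 11.1% of all genes tested. This list, like the others, was chosen with earlier results of these data known, so its separation is no independent support. The summed level of this list was 413.4, 762.9 and 211.4 CPM in the DTx and 95.1 and 113.4 CPM in the saline libraries. Library 6A was highest for this list, as it was for C4b, C2 and Cfb, and Serping1 was lowest of the DTx libraries there. Library 7A was lowest of the DTx libraries for this list, C2 and Cfb, whereas C4b was lowest in library 5A. Microglia markers had a higher mean in DTx for 14 of 15 genes, 2 of them without overlap, and none was at 0. Over all genes tested, 50.4% were higher in DTx and 11.1% lay above saline without overlap. The summed level of the microglia markers was 430.9, 372.4 and 272.7 CPM in the DTx and 129.2 and 310.4 CPM in the saline libraries. Library 7A thus lay below saline replicate 2. When mean microglia marker level was a covariate, the log2 fold change was 1.34 ± 0.394 for C4b. It was 0.78 ± 0.487 for Serping1 and 0.58 ± 0.472 for Cfb, each smaller than without the covariate. Neuron markers summed to 380, 478.7 and 457.2 CPM in the DTx libraries and 346.5 and 314.4 CPM in the saline libraries. Their mean was higher in DTx for 9 of 10 genes, 4 of them without overlap, against 11.1% of all genes tested. Mitochondrial transcripts took 6.32%, 6.83% and 6.94% of counts in the DTx libraries and 6.25% and 5.81% in the saline libraries. In bulk samples such as these, fewer cells of a type and less RNA per cell cannot be told apart, and the part of interferon response, microglia, neurons or RNA quality in the complement values was not tested.

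**Figure D2:**
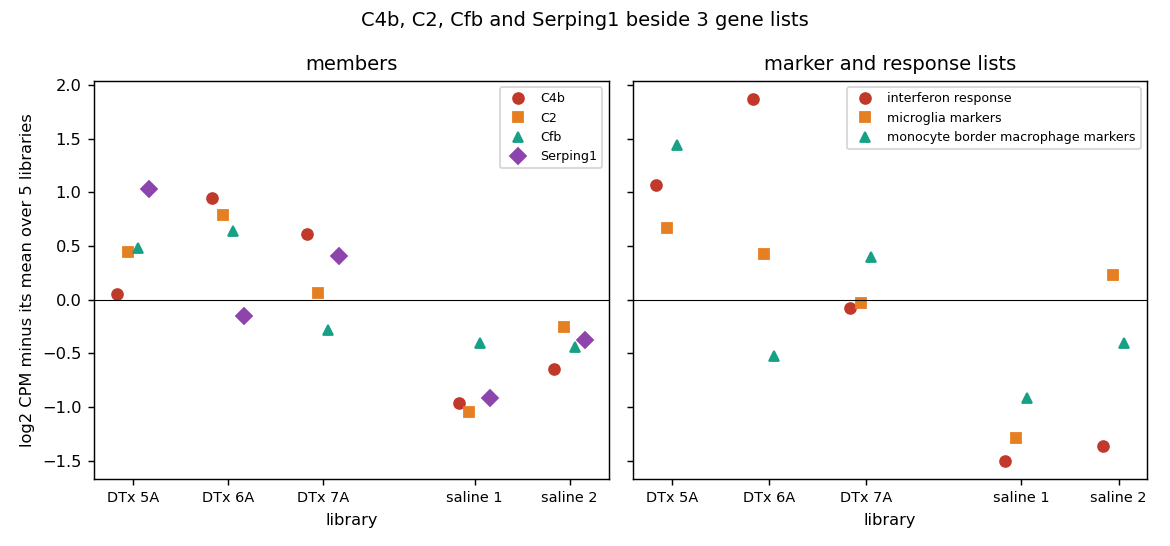
Log2 CPM minus its mean over the 5 libraries for C4b, C2, Cfb and Serping1 (left) and for the mean of 3 gene lists (right), with DTx libraries left of saline replicates in each panel. All 4 genes are lower in both saline libraries than in any DTx library. Of the 3 lists plotted, all chosen with earlier results of these data known, only the interferon response does the same.

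By the same measure of likeness, the genes with a mean of at least 10 CPM closest to C4b were Heyl, Herc6 and Trim25, at 0.221, 0.232 and 0.243, out of 8962 genes compared over 5 libraries. Heyl encodes a Notch-regulated repressor, and Herc6 and Trim25 encode interferon-inducible ligases of the ubiquitin family. Herc6 was at 30.25, 46.7 and 24.7 CPM in the DTx libraries and 11.98 and 18.3 CPM in the saline libraries. These likenesses rest on 5 libraries and carry no test.

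C3 and Cd55 followed another pattern: both were high in 1 library of each group. C3 encodes the central component of the cascade (chromosome 17, 57203967 to 57228136, minus strand). It was at 4.27, 0.248 and 0.396 CPM in the DTx libraries, against 3.75 and 0.226 CPM in the saline libraries. Library 5A and saline replicate 1 each held 81 counts, and the other libraries 4 to 7. The difference between the saline replicates, 16.6-fold, was far larger than that between groups, where the log2 fold change was -0.20 ± 1.32 (SE, edgeR adjusted p = 0.974). Without saline replicate 1 the log2 fold change was 2.90 ± 2.19, and without saline replicate 2 it was -1.12 ± 1.22.

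Cd55 encodes decay-accelerating factor, a membrane protein that takes C3 convertases apart (chromosome 1, 130429798 to 130465009, minus strand). It was at 4.37, 0.806 and 0.452 CPM in the DTx libraries, against 4.53 and 0.768 CPM in the saline libraries. The same 2 libraries were high, and saline replicate 1 was 5.9-fold above saline replicate 2. The log2 fold change was -0.43 ± 1.03 (SE, edgeR adjusted p = 0.938), and it was 1.34 without saline replicate 1 and -2.07 without library 5A. Of its 50-base words 9.12% occur in other genes, mostly in Cd55b, which had 1 count. An antisense gene, Cd55os, overlaps Cd55, and with no strand setting stated its reads cannot be told apart from those of Cd55.

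DTx library 5A and saline replicate 1 were also the libraries with high ependymal markers, the genes of the ciliated cells that line the ventricles. The 8 markers listed all had counts in each library, and their summed level was 184.8, 47.8 and 34.4 CPM in the DTx libraries, against 284.9 and 30.4 CPM in the saline libraries. Ccdc153 was at 39.3, 2.42 and 0.0565 CPM in the DTx libraries and 41.8 and 0.542 CPM in the saline libraries. Foxj1, another of the 8, was at 18.7, 11.2 and 17.75 CPM in the DTx libraries and 79.5 and 14.7 CPM in the saline libraries. It was thus high in saline replicate 1 alone, and library 5A was close to library 7A. The 8 choroid plexus markers summed to 84.6, 103.7 and 27.5 CPM in the DTx libraries and 37.8 and 25.7 CPM in the saline libraries, with a higher mean in DTx for 3 of them. Ttr, their defining transcript, was at 0.113 to 0.264 CPM in DTx and 0.226 and 0.694 CPM in saline libraries. Folr1, another of them, was at 1.37, 0.062 and 0.113 CPM in the DTx libraries and 3.24 and 0 CPM in the saline libraries, and so was high in the same pair of libraries as C3 and Cd55. Compared between the libraries with high ependymal markers, C3 was 1.14 times and Cd55 0.965 times as high in library 5A as in saline replicate 1. Against saline replicate 2, C3 was 1.1 times as high in library 6A and 1.75 times in library 7A, and Cd55 1.05 and 0.589 times. With the mean ependymal marker level as a covariate, chosen after this pattern was seen, the log2 fold change was 0.53 ± 0.528 for C3 and -0.06 ± 0.404 for Cd55. The part of ependymal or choroid plexus RNA in the C3 and Cd55 values was not tested.

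**Figure D3:**
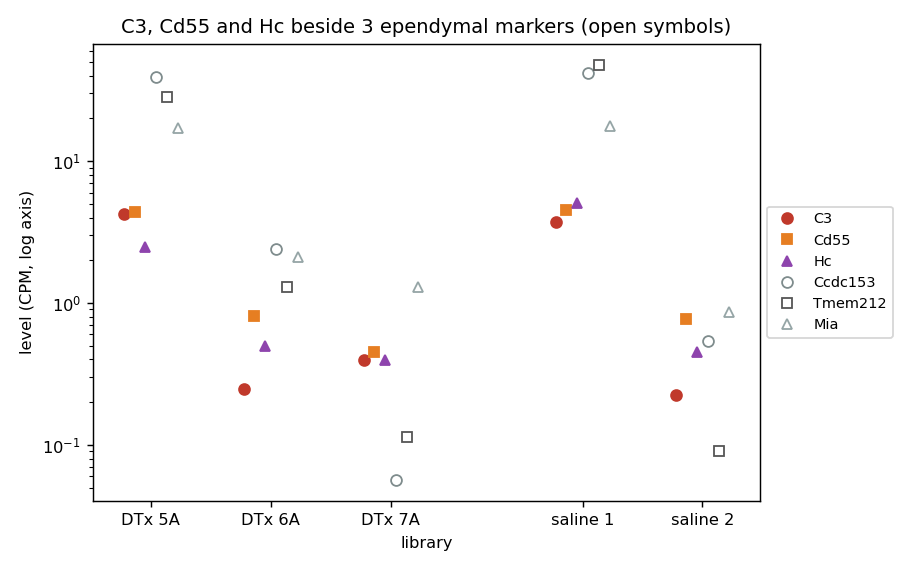
Levels of C3, Cd55 and Hc (filled symbols) and of the ependymal markers Ccdc153, Tmem212 and Mia (open symbols) in each library, in CPM on a log axis, with DTx libraries left of saline replicates. All 6 genes are highest in DTx library 5A and saline replicate 1. Foxj1, another ependymal marker, is not plotted and was high in saline replicate 1 alone.

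Of the complement genes outside the set, Hc and Cpn1 had the same pattern and are named because their values were seen. Hc, which encodes C5, was at 2.48, 0.496 and 0.396 CPM in the DTx libraries and 5.04 and 0.452 CPM in the saline libraries. Cpn1, the carboxypeptidase that inactivates the anaphylatoxins C3a and C5a, had 44, 2 and 0 counts in the DTx libraries and 97 and 4 counts in the saline libraries. The genes with a mean of at least 10 CPM closest to C3 were Tm4sf1, Anxa2 and Cfap126, at 0.297, 0.3615 and 0.478, out of 8963 compared. Tm4sf1 was at 31.2, 2.66 and 3.67 CPM in the DTx libraries and 32.1 and 4.74 CPM in the saline libraries.

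Because C3 and Cd55 moved together across libraries, the 250 bases before the annotated start of each are shown on the gene's strand, from RefSeq on GRCm38.p6, with motif matches in capitals. The C3 window is chr17:57228137-57228386 (minus strand) and the Cd55 window is chr1:130462745-130462994 (minus strand), which lies inside the gene's annotated span.
C3: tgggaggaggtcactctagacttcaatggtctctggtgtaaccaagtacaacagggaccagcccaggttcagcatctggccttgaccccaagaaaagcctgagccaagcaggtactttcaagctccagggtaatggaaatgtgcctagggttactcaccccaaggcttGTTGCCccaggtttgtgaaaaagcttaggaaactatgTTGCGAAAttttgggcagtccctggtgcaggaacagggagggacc
Cd55: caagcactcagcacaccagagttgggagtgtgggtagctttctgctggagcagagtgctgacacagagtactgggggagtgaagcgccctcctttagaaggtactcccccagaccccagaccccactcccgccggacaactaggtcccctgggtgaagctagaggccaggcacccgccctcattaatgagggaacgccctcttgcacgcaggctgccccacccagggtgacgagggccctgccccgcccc
In C3 the capitals mark a C/EBP-type match (TTGCNNAA), 45 to 38 bases before the start, and an X-box-type match (GTTGCC), 82 to 77 bases before it. On either strand, 9.56% and 10.4% of all 32851 promoter windows hold these motifs. The other motifs searched on both strands were the GAS-type TTCNNNGAA, the interferon-stimulated element core (TTTC, 2 bases, TTTC), the NF-kB-type motif (GGG, 2 bases, TTTCC) and the FOXJ1-type GTAAACA, present in 7.02%, 2.98%, 1.41% and 3.17% of windows. None of the 6 had these letters in the Cd55 window, and none of the other 4 in the C3 window.

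Clu and Cd59a, regulators of the terminal steps, had overlapping levels in the DTx and saline libraries. Clu encodes clusterin, a secreted chaperone that inhibits the membrane attack complex (chromosome 14, 65968483 to 65981548). It was at 3706, 4031 and 3316 CPM in the DTx libraries, against 3222 and 3554 CPM in the saline libraries. The groups overlapped, and the highest library was 1.25 times the lowest, the narrowest range of the 9 genes. Its log2 fold change was 0.13 ± 0.198 (SE, edgeR adjusted p = 0.895). Clu ranked 23 to 28 among all genes by CPM in DTx libraries and 25 in both saline libraries.

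Cd59a encodes the membrane protein that blocks assembly of the attack complex (chromosome 2, 104095753 to 104115410). It was at 10.3, 6.32 and 14.8 CPM in the DTx libraries, against 10.55 and 19.1 CPM in the saline libraries. The groups overlapped, with library 6A lowest and saline replicate 2 highest. Between groups the log2 fold change was -0.48 ± 0.394 (SE, edgeR adjusted p = 0.81), and it was 0.0013 without saline replicate 2. In libraries 6A and 7A Cd59a was 0.332 and 0.774 times saline replicate 2, its highest library, whereas C4b was 3.02 and 2.39 times. In library 5A, Cd59a was 0.9745 times and C4b 2.03 times saline replicate 1. Oligodendrocyte markers summed to 42220, 43440 and 88470 CPM in the DTx and 59290 and 91970 CPM in the saline libraries. Like Cd59a, these markers were highest in library 7A among DTx libraries, and higher in saline replicate 2 than in saline replicate 1. Unlike Cd59a, they were lower in library 5A than in library 6A. The part of oligodendrocytes in the Cd59a values was not tested. Cd59b, the neighbouring paralogue, was at 0.896, 0.558 and 0.396 CPM in the DTx libraries and 0.833 and 0.587 CPM in the saline libraries.

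Of 47 other complement genes listed, 25 entered the test, 14 higher and 11 lower in DTx libraries, and 0 passed with edgeR, DESeq2 or the likelihood ratio test (1 at an unadjusted edgeR p under 0.05). Their median log2 fold change was 0.23, against 0.00238 over all genes. Of all genes tested, 50.4% were higher in DTx and 6.68% had an unadjusted edgeR p under 0.05. Fcnb, Mbl1, Colec10, C8b and C9 had no count in any library, which allows a level of up to 0.136 to 0.186 CPM per library from 3 counts. Of the late components, C6, C7 and C8a had 0 to 5 counts a library, so no gene of the attack complex after C5 was well detected apart from C8g, at 1.3 to 1.58 CPM in DTx and 1.4 and 1.94 CPM in saline libraries. Masp1, a protease gene of the lectin pathway, was at 25.1, 17.7 and 22.3 CPM in the DTx libraries and 24.3 and 23.1 CPM in the saline libraries. The annotated span of C8g overlaps Fbxw5, and that of Masp1 overlaps Rtp4 and Gm49514. With no strand setting stated, some reads counted for C8g or Masp1 may come from these neighbours.

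**Figure D4:**
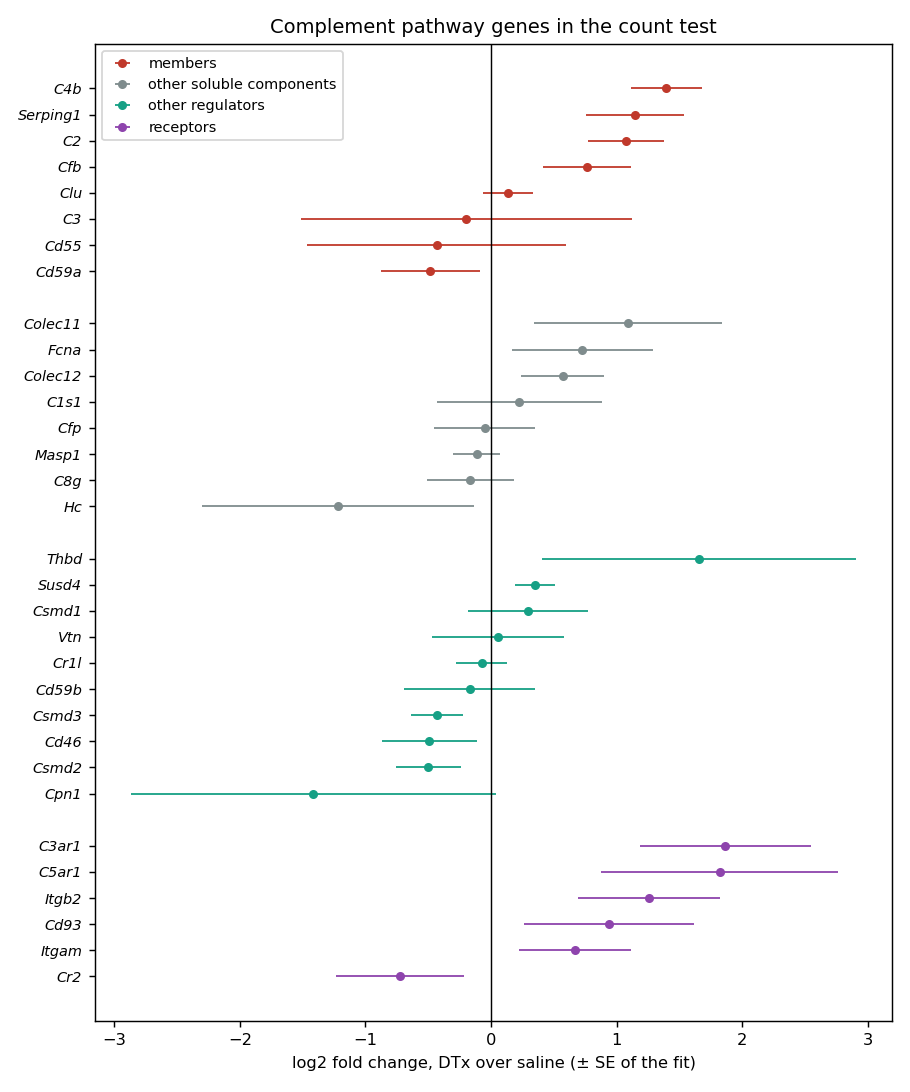
Log2 fold change, DTx over saline, with the SE of the edgeR fit for 32 of the 33 complement genes that entered the count test, grouped by role. The highest values are those of C3ar1, C5ar1, Thbd and C4b, and none of the 32 passed an adjusted p of 0.05.

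Among other soluble components and regulators, Susd4, an inhibitor of C3 convertase formation, was at 31.9, 39.6 and 35.1 CPM in the DTx libraries and 29.65 and 26.65 CPM in the saline libraries, without overlap. Its log2 fold change was 0.35 ± 0.158 (SE, edgeR adjusted p = 0.764). Csmd3 and Csmd2, members of a family of neuronal CUB and sushi domain proteins, had log2 fold changes of -0.43 ± 0.207 and -0.50 ± 0.258 (SE, edgeR adjusted p = 0.764 and 0.7685). Colec12, a scavenger receptor of the collectin family, was at 33.4, 21.5 and 17.1 CPM in the DTx libraries and 12.8 and 19.9 CPM in the saline libraries, and the groups overlapped (edgeR adjusted p = 0.778).

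Complement receptors, which are known from microglia and macrophages, were higher in DTx libraries for 5 of 6 genes tested. Of these, 0 passed with these tools (1 at an unadjusted edgeR p under 0.05). Over all genes tested, 50.4% were higher in DTx and 6.68% had an unadjusted edgeR p under 0.05. C3ar1, the receptor for C3a, was at 9.06, 2.17 and 3.45 CPM in the DTx libraries and 1.2 and 1.54 CPM in the saline libraries, with a log2 fold change of 1.87 ± 0.683 (SE, edgeR adjusted p = 0.742). C5ar1, the receptor for C5a, was at 6.8, 0.806 and 2.26 CPM in the DTx libraries and 0.509 and 1.4 CPM in the saline libraries, and the groups overlapped. Itgb2, the shared chain of complement receptors 3 and 4, was at 6.43, 4.21 and 3.22 CPM in the DTx libraries and 0.786 and 3.12 CPM in the saline libraries. Library 5A was highest for all 3 receptors. It also had the highest summed level of 12 monocyte and border macrophage markers, at 255.8 CPM, with 31.7 and 114.5 CPM in libraries 6A and 7A and 28.7 and 39.4 CPM in the saline libraries. A large part of this sum came from 1 gene, Cd74, at 115.3, 4.59 and 49.2 CPM in DTx and 3.01 and 5.83 CPM in saline libraries. Mrc1, another of the 12, was at 37.8, 5.08 and 14.6 CPM in DTx and 4.35 and 6.55 CPM in saline libraries. The summed level of C1qa, C1qb and C1qc was 196.9, 102.8 and 101 CPM in the DTx libraries and 30.6 and 83.6 CPM in the saline libraries. The part of microglia and macrophages in the receptor values was not tested.

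**Figure D5:**
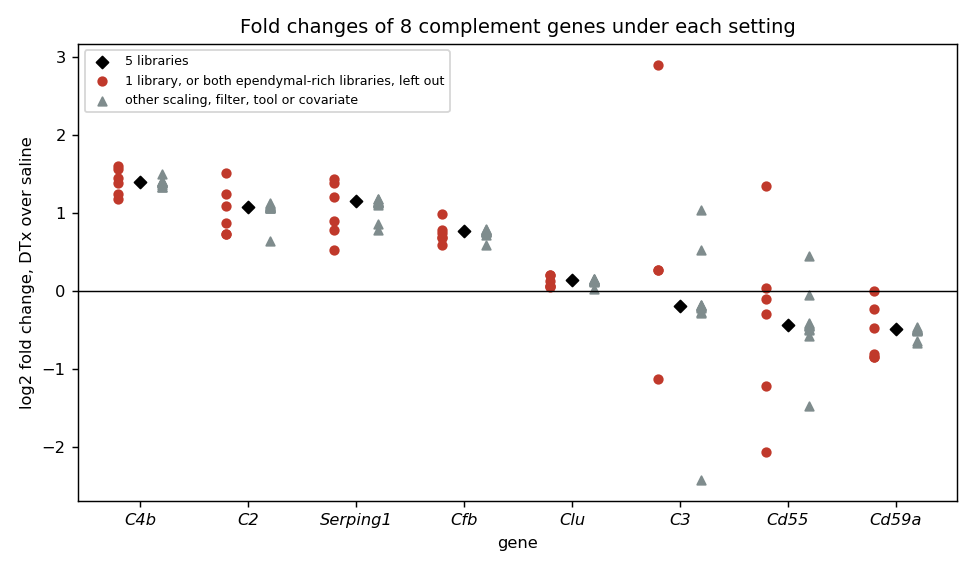
Log2 fold change, DTx over saline, of the 8 complement genes tested, from all 5 libraries (black), with libraries left out (red) and under other scalings, filters, tools or covariates (grey). C4b, C2, Serping1 and Cfb stay above 0 in each setting shown, and C3, Cd55 and Cd59a cross it.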

How the data were processed

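Total RNA of ACSA-2-selected amygdala cells was sequenced from 5 ng per library, per the labels' protocols. The authors deposited raw read counts per gene in a table with a column for each library. STAR 2.7.5c and featureCounts 2.0.1, on GRCm38 (mm10), are named in the submitters' processing notes, as are edgeR 3.42.4, fastp 0.23.2, MultiQC 1.11 and FastQC 0.11.9. No source used here gives the annotation, the strand setting or how multi-mapped reads were treated. Saline columns were matched to replicates by Ctrl and their number. The numbers of the DTx columns match no label, so these were assigned to the group alone. The table has 1 other per-sample column, left out here.

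Counts were compared with edgeR 4.0.16 in R 4.3.3, by TMM scaling, filterByExpr with a minimum count of 10, the robust quasi-likelihood F test and Benjamini-Hochberg adjustment over all genes tested, at 0.05. Fold changes are DTx over saline, and an SE is the log2 fold change divided by the square root of F. Levels are TMM-scaled CPM values computed from the deposited counts, and log2 CPM uses a prior count of 2. CPM per kilobase uses the union of GENCODE M21 exons, which may differ from the authors' annotation. Positions are from RefSeq GRCm38.p6. Promoter windows were found there for 4 of the 9 genes. Intervals and limits from counts cover counting error only, and p-values reflect only how these libraries vary, which may be technical.

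The genes and all lists were chosen with earlier results of these data known. All 9 genes are named, as are up to 8 other complement genes with the smallest p and at least 1 CPM, of which 1 is not reported here, and the 3 most alike genes with at least 10 CPM for C4b, C3 and Clu. Those closest to Clu were Mtmr12, Phpt1 and Fbxo3. Other genes are named after their values were seen. Alternatives were scaling by total count, RLE or upper quartile, 2 other filters, DESeq2 1.42.0, limma-voom (limma 3.58.1), the likelihood ratio test, each library left out, and marker means as covariates.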

Additional observations from a re-analysis of the deposited data

How the results depend on the processing

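C4b, C2, Cfb, Serping1 and Clu kept their direction in all 17 alternatives. C4b passed with DESeq2 (1.389, adjusted p = 0.00221) and with the edgeR likelihood ratio test (1.396, adjusted p = 0.0035), and passed in none of the other 15. With 1 library left out, the log2 fold change ranged from 1.17 to 1.60 for C4b, 0.73 to 1.51 for C2, 0.59 to 0.99 for Cfb, 0.79 to 1.44 for Serping1 and 0.06 to 0.20 for Clu. It ranged from -1.12 to 2.90 for C3, -2.07 to 1.34 for Cd55 and -0.85 to 0.0013 for Cd59a, and so changed sign. C3 was 0.266 without library 6A and 0.274 without library 7A, Cd55 was 0.0357 without library 7A, and C3 fell below the filter without library 5A. With the microglia covariate C3 was 1.04 and Cd55 0.45, and with the ependymal covariate C3 was 0.53. With the fibroblast covariate C3 was -2.42 and Cd55 -1.47. The cause was not tested.

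Genes called numbered 111 with DESeq2 and 100 with the likelihood ratio test, against 5 in the reported test. They numbered 3 with the microglia covariate, 3 with the fibroblast covariate, 3 without both libraries with high ependymal markers, and 3 to 13 with 1 library left out, 13 without library 7A and 3 without library 6A. Of the complement list 19 genes were higher, 16 to 27 with 1 library left out and 32 with no low-count filter, where 51 were tested. Without both libraries with high ependymal markers its median log2 fold change was -0.00832, against 0.225 from all libraries. No scaling moved the median of all genes by over 0.1. The ependymal alternatives were added after seeing the data. No paired analysis was possible because the DTx columns carry no replicate number. Depth limits C1ra, with 1 to 11 counts a library, and C3, with 4 to 7 in 3 libraries.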
